A study of Mus musculus with 24 samples.

Results

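Translation initiation and elongation factors are the proteins that load a ribosome onto a messenger RNA (mRNA), find its start codon and move the ribosome along it. Their genes were taken as all protein-coding mouse autosomal genes whose symbol begins with Eif1 to Eif6, Eef1 or Eef2. The kinases of eIF2 (Eif2ak) and its gamma subunit genes (Eif2s3) were left out. The rule uses names only and found 61 of the 35519 genes with transcripts in the files. A filter on low counts kept 57 of them among 9803 genes for testing. The 4 left out were Eef1a2, Eif4e1b, Eif4ebp3 and Eif5a2, with 11, 4, 39 and 34 reads over all libraries.

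The values are from microglia, the resident macrophages of the brain, of C57BL/6 mice. Cells were sorted from whole brain as negative for Ly6C and positive for CD11b and Fcrls, and each library was made from 1000 of them by Smart-Seq2, a full-length RNA sequencing method. The 24 libraries form 8 groups by sex, by genotype (WT, wild type, or NL4-/-, a knockout of the synaptic adhesion protein neuroligin-4) and by state (phagocytosis or control). Each control group (female WT, female NL4-/-, male WT and male NL4-/-) has 2 libraries, and each phagocytosis group of the same sex and genotype has 4 analysed here, of 5 that the design text gives. The labels state neither the age of the mice, nor the allele, nor what was phagocytosed and whether in the animal or in culture. The design text calls the libraries biological replicates without naming the animals behind them, so p-values measure the spread between these libraries.

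Initiation begins when eIF2 brings the initiator tRNA to the small ribosomal subunit, helped by eIF1, eIF1A, eIF5 and the large eIF3 complex, while eIF4F (the cap-binding eIF4E, the scaffold eIF4G and the RNA helicase eIF4A) prepares the mRNA. In elongation eEF1A delivers aminoacyl-tRNAs and is recharged with GTP by the eEF1B complex, and eEF2 moves the ribosome by a codon. Many mRNAs of elongation factors and of ribosomal proteins begin with a run of pyrimidines at the cap, through which their own translation is known to be set by the kinase complex mTORC1. Microglia that take up material are known to change their RNA widely, and the values below are RNA levels, which do not measure protein or translation.

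RefSeq windows around transcription starts were searched for pyrimidine runs at any position, so a run counted here need not begin at the cap. Some of these genes had a run in this wider sense and others did not. The 3 windows below belong to members that rose in phagocytosis libraries and carry a run of at least 8 C or T on the transcript's strand. Each shows the 25 bases before the start and the 25 from it onwards, 5′ to 3′ on the gene's strand (build GRCm38.p6), with the longest run in capitals. They lie at chr7:108934390-108934439 on the plus strand for Eif3f, chr9:78481700-78481749 on the minus strand for Eef1a1, and chr15:79075198-79075247 on the plus strand for Eif3l.
Eif3f: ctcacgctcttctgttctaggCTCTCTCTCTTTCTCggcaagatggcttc
Eef1a1: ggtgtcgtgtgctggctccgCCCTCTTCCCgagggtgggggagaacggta
Eif3l: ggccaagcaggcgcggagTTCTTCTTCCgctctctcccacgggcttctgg
The longest run was 15 bases in Eif3f and 10 in Eef1a1 and in Eif3l. These runs began at -4, -5 and -7 from the annotated start and extended across it, so none began exactly there. The next pair are the windows of the helicase paralogs Eif4a1 (chr11:69672399-69672448, minus strand) and Eif4a2 (chr16:23107443-23107492, plus strand), which moved in opposite directions and hold no run of that length.
Eif4a1: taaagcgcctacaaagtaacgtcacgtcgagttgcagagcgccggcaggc
Eif4a2: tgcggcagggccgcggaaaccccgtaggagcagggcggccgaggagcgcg

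RefSeq windows were matched by symbol for 45 members, with 59 windows in all since a gene can have several starts. A run of at least 8 pyrimidines anywhere in these 50 bases was present in 25.4% of the members' windows. It was present in 19.7% of all 32851 windows and 19.2% of the 9668 windows of tested genes. Position was not considered, so these shares do not measure runs that begin at the cap. The run counted for Eef2k, of 10 bases, began at -24 and ended before the start. In the full windows, from 250 bases before to 50 after the start, the motif CACGTG (the core E-box bound by MYC and related factors, identical on both strands) was found in 25.4% of the members' windows. It was found in 7.15% of all windows and 10.4% of those of tested genes. By gene, 13 of the 45 members had the motif and 13 had a pyrimidine run. Windows of 1 gene, as for Eif5a, can share a match, and no share by gene was taken over all genes. TGACGTCA, the cyclic AMP response element, which also reads the same on both strands, was in 1.69% of the members' windows, 1.79% of all and 3.13% of those of tested genes. TGATGNAA, the composite element of ATF4 searched on both strands, was in 1.69%, 3.97% and 2.3%. Of the members that rose, 9 had a window, 3 of them with a pyrimidine run and 3 with CACGTG. Both members that fell had a window, 1 with a run and 1 with CACGTG. The matches describe letters in these windows and are not measured binding.

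The CACGTG matches of called members are shown with 12 bases on either side, the motif in capitals. They lie at chr7:108934335-108934364 on the plus strand for Eif3f, chr11:69672595-69672624 on the minus strand for Eif4a1, chr11:69920791-69920820 on the minus strand for Eif5a, and chr7:120842788-120842817 on the plus strand for Eef2k. Eif5a has a further match at another annotated start.
Eif3f: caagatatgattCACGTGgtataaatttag
Eif4a1: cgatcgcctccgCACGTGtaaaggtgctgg
Eif5a: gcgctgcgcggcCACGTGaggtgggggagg
Eef2k: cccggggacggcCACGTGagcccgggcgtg
Of these, Eif3f, Eif4a1 and Eif5a rose and Eef2k fell, so the motif was present in members that moved either way.

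Library totals ran from 421107 to 1013797 expected reads. Libraries labelled male had 7 to 37 reads of the Y-linked Ddx3y and Eif2s3y, and those labelled female 0 to 2. The Y-linked Uty did not separate them in this way, with up to 36 reads in female and up to 56 in male libraries. The knocked-out gene, Nlgn4l, had 0 transcripts in the files, so the genotype labels could not be checked. Transcripts built of the major satellite repeat took 4.07 to 23.3% of the gene reads of a control library and 1.52 to 16.3% of a phagocytosis library. They passed 20% in 3 controls, which were male WT control 2 (23.3%), male NL4-/- control 1 (21.5%) and female NL4-/- control 1 (22.2%). The 14 microglial markers were all present in the files, and their summed level was 40400 to 52800 CPM (reads scaled to a TMM-normalised library total of 1000000) in controls and 21200 to 48300 in phagocytosis libraries, with 0 of 14 having a higher mean in phagocytosis. Of 10 markers of border-associated macrophages, 10 had a higher mean in phagocytosis (sums of 57.5 to 144 CPM against 188 to 576 CPM). Of 9 neuronal markers, 8 did (2.73 to 12.8 against 12.8 to 106 CPM), as did 7 of 9 for oligodendrocytes (137 to 185 against 173 to 372 CPM) and 7 of 8 for monocytes (16.4 to 71.2 against 24.5 to 169 CPM). Most of the neuronal rise lay in Uchl1 (means of 2.09 and 32.2 CPM), and Snap25, the next highest, had 1.53 and 2.71 CPM. Ms4a6c (57.8 and 123 CPM) and Siglec1 (32.5 and 116 CPM) made up most of the border-associated sum. Markers of neutrophils (3 of 7 higher), lymphocytes (2 of 9), astrocytes (6 of 7), endothelial cells (4 of 7, with Cldn5 at 0) and red cells (3 of 4) were also counted. The astrocyte sum had a median of 104 CPM in controls and 92.2 CPM in phagocytosis libraries, with Slc1a3 at means of 94.5 and 61 CPM. The part of these shifts, and of the satellite share, in the results below was not tested, except where values without the 3 libraries are given. In bulk libraries a change in the mix of cells and a change in RNA per cell cannot be told apart.

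Together the 61 genes took 0.874 to 1.25% of the gene reads of a control library (1.07% ± 0.141, SD, n = 8) and 1.17 to 1.64% of a phagocytosis library (1.42% ± 0.133, SD, n = 16). Without Eef1a1 the shares were 0.613 to 0.858% and 0.778 to 1.09%. The groups overlapped at their edges in both cases, with the higher values in phagocytosis. Satellite-like reads are part of the denominator of these shares.

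**Figure D1:**
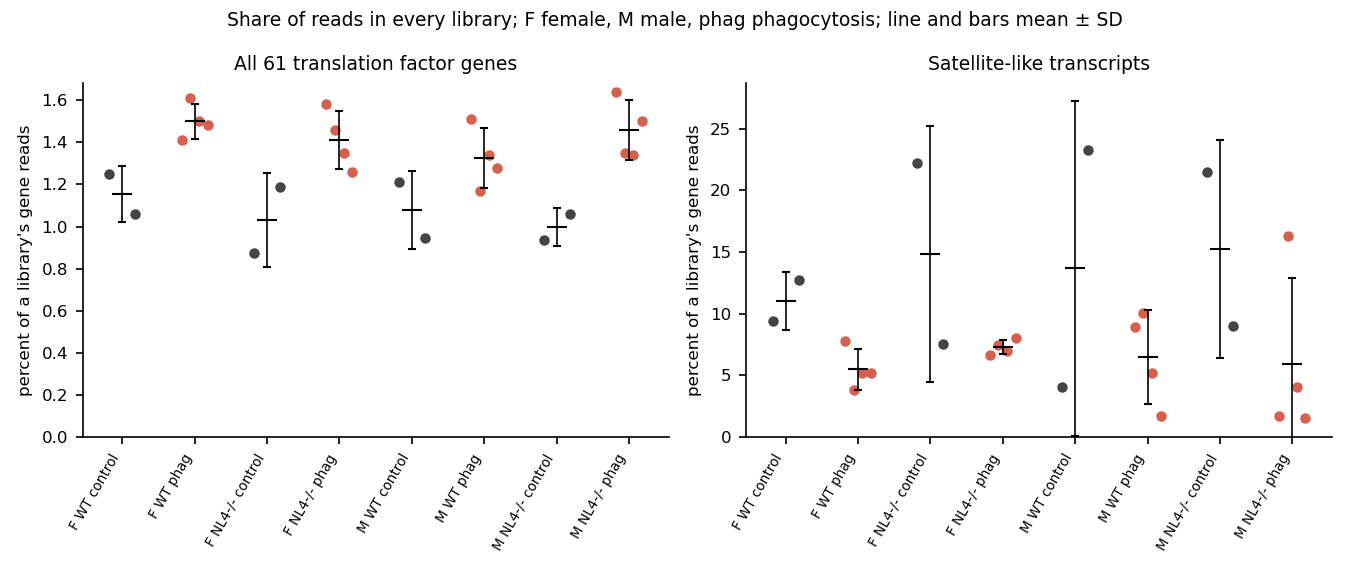
Percent of a library's gene reads taken by all 61 translation factor genes (left) and by satellite-like transcripts (right), 1 point per library in the 8 groups, with mean ± SD. The factors' share lies between 0.874 and 1.25% in controls and between 1.17 and 1.64% in phagocytosis libraries, and the satellite share passes 20% in 3 controls.

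Levels between genes were compared in TPM, the authors' values, which are divided by transcript length and scaled to a fixed sum per library. Eef1a1, the carrier of aminoacyl-tRNAs, was the highest at 2300 ± 807 TPM (SD, n = 24) and held 30.3% of the members' TPM, 4.48-fold above the next gene. It was followed by Eef1b2, the catalytic exchange subunit for eEF1A (513 ± 158 TPM), Eif5a, which helps the ribosome through difficult peptide bonds (477 ± 157), the translocase Eef2 (403 ± 135) and Eef1g, a structural subunit of eEF1B (388 ± 171). These 4 neighbours differed by less than their SDs. Eif1, which guards start codon choice, came next at 338 ± 102 TPM. Eef1a2, the paralog that replaces Eef1a1 in neurons and muscle, was close to 0 in both states (0.116 TPM in controls and 0.333 in phagocytosis libraries), with no read in 17 libraries. Eif5a2 was at 0.376 and 0.958 TPM.

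The first comparison asks how the 2 states differed, averaging the difference of phagocytosis from control over the 4 combinations of sex and genotype. RNA of 14 members rose and that of 2 fell, out of 57 tested. The largest rises were in Eif3f, a subunit of eIF3 (2.05-fold), Eef1akmt1, a methyltransferase of eEF1A (1.84-fold), and Eef1g (1.7-fold). The falls were in the helicase Eif4a2 (0.691-fold) and in Eef2k, the kinase that inhibits eEF2 (0.717-fold). The risen members were 24.6% of those tested, against 8.41% of all genes tested that rose, and the fallen were 3.51% against 5.18%. An unadjusted p under 0.05 was reached by 26 members (45.6%), 24 of them higher, and by 26.98% of all genes. The log2 fold change was positive for 45 of 57 members (78.9%) and for 49.3% of all genes, and its median was 0.307 for the members and -0.005 for all genes. Of the 41 members that did not pass, 8 had an adjusted p under 0.1. The 72 cytosolic ribosomal protein genes, the other large group of the translation machinery, were all tested, and 58 of them rose and 0 fell, with a median of 0.475.

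The count of risen members rests in part on the controls. Without the 3 controls over 20% satellite-like reads it was 3 of 58 tested (5.17%, against 3.09% of all genes), Eif3f, Eef1g and Eif4a1, and 0 fell, while the members' median stayed at 0.295. That fit has 5 controls, with a single one in 3 of the groups, which is assumed to vary like the others. With phagocytosis libraries 3 and 4 only, 9 rose of 55, with a median of 0.172. With 1 library left out, 10 (without female WT control 2) to 21 (without male NL4-/- phagocytosis 3) rose. The log2 fold changes of all 16 called members kept their sign in each of the 35 alternatives.

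**Figure D2:**
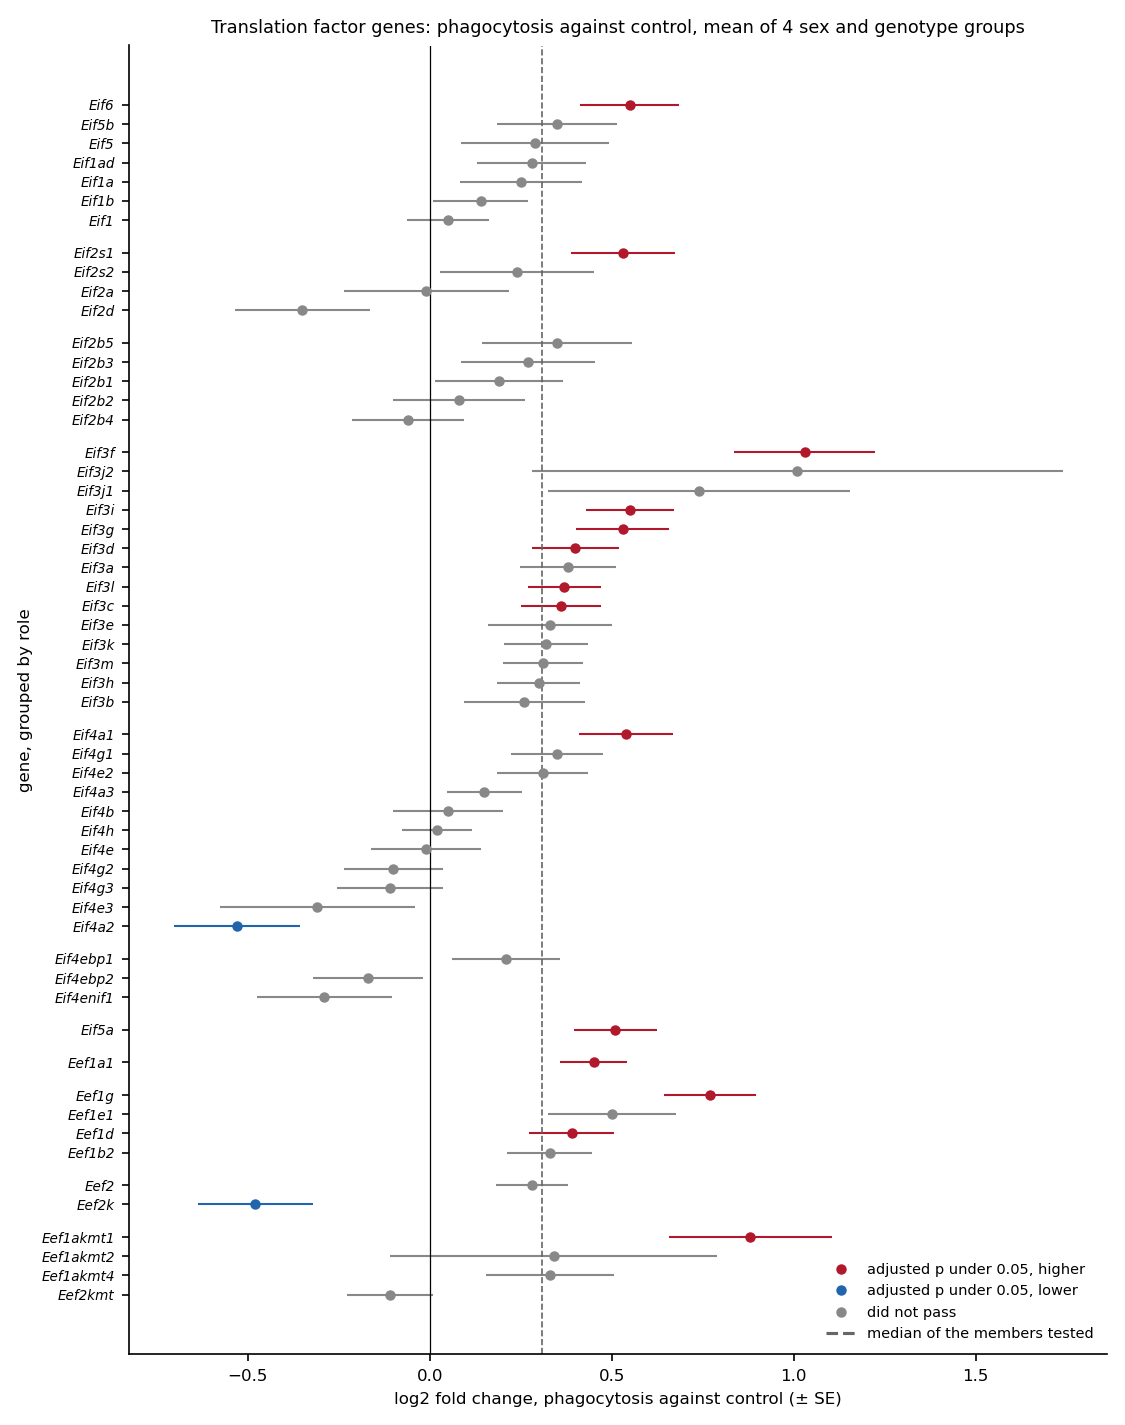
Log2 fold change of phagocytosis against control (mean of the 4 sex and genotype groups) for the tested members by role, with bars of ± SE. Red points passed upwards (14), blue points passed downwards (2) and grey points did not pass. The dashed line is the members' median of 0.307, and the eIF3 subunits all lie to the right of 0. Eef1akmt3 is not drawn because its SE could not be estimated.

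The eIF3 complex, which helps initiation on the small ribosomal subunit, had the largest number of risen members. It is also the largest group by role, so the number alone does not set it apart. Among smaller groups, 2 of the 4 genes of eEF1B and Eef1e1 rose, as did the only tested gene of eEF1A and of eIF5A. Of the 14 genes of eIF3, 6 rose and 0 fell, while 8.41% of all genes tested rose. All 14 were positive, and the median was 0.378. With DESeq2 8 rose, Eif3a and Eif3k in addition. Eif3f (chr7:108934417-108942951) was at 61.6, 89.7 and 110 CPM (lowest, median and highest) in controls and at 70.8, 170 and 270 CPM in phagocytosis libraries. In 14 of the 16 phagocytosis libraries it was above every control, and the exceptions were female NL4-/- phagocytosis 3 (70.8 CPM) and 4 (101 CPM). The log2 fold change was 1.03 ± 0.193 (SE, adjusted p = 0.000839).

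Eif3i (chr4:129591960-129600648), a subunit shaped as a WD-repeat propeller, ran at 116, 130 and 181 CPM in controls and 141, 202 and 255 CPM in phagocytosis libraries. It was above every control in 12 of 16, and rose by 0.55 ± 0.122 on the log2 scale (adjusted p = 0.00283). Eif3g (chr9:20894349-20898623), an RNA-binding subunit near the mRNA entry channel, ran at 80.1, 120 and 182 CPM and at 129, 174 and 252 CPM. Controls at 182, 132 and 141 CPM (female WT control 1, then male control 1 of WT and control 2 of NL4-/-) were above the lowest phagocytosis library, female NL4-/- phagocytosis 4 at 129 CPM, and within each sex and genotype all 4 phagocytosis libraries were above both controls. The log2 fold change of Eif3g was 0.53 ± 0.127 (adjusted p = 0.00551), and it was 0.41 (adjusted p = 0.141) without the 3 satellite-rich controls.

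Eif3d, a subunit that can itself bind the cap, ran at 117, 148 and 218 CPM in controls and 148, 196 and 277 CPM in phagocytosis libraries (log2 fold change 0.40 ± 0.12, adjusted p = 0.0243). Eif3l ran at 136, 166 and 215 CPM and at 157, 213 and 269 CPM (0.37 ± 0.1, adjusted p = 0.0125). Eif3c, a core scaffold subunit, ran at 126, 241 and 273 CPM and at 243, 286 and 340 CPM (0.36 ± 0.11, adjusted p = 0.027). The calls of these 3 were less firm than those of Eif3f, Eif3i and Eif3g. Among the 11 alternatives other than leaving out 1 library, Eif3d and Eif3l passed in 8 each and Eif3c in 6. Eif3f passed in 11 of them, and Eif3i and Eif3g in 10 each. Leaving out a single library ended the calls of Eif3d and Eif3c in 4 of 24 fits each. The libraries were female WT control 2, male NL4-/- control 1 and female NL4-/- control 1 for both genes, with male WT control 2 for Eif3d and male WT control 1 for Eif3c, and the adjusted p reached 0.0939 and 0.104. That of Eif3l was lost without female WT control 2 (adjusted p = 0.0502).

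The other 8 subunits of eIF3 did not pass. Eif3a, the largest scaffold subunit, had a log2 fold change of 0.38 (adjusted p = 0.0529), and Eif3m, Eif3k and Eif3h had 0.31, 0.32 and 0.30 (adjusted p = 0.0598, 0.0606 and 0.0773). Eif3e and Eif3b had 0.33 and 0.26. Eif3j1 and Eif3j2 had 0.74 ± 0.416 and 1.01 ± 0.729, with few reads (210 and 198 in all), and their transcripts are 99.412% identical, so reads cannot be assigned to either with certainty.

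Among the factors of elongation, Eef1a1 and 2 of the 4 genes of eEF1B and Eef1e1 rose. Eef1a1 (chr9:78478449-78489151) ran at 2960, 3380 and 4040 CPM in controls and at 4030, 4680 and 5320 CPM in phagocytosis libraries. Of the 16 phagocytosis libraries 15 were above every control, and the remaining one, male WT phagocytosis 2, was at 4030 CPM beside 4040 CPM in female WT control 1. The log2 fold change of Eef1a1 was 0.45 ± 0.0922 (adjusted p = 0.00145). Its 10 near-identical copies held reads equal to 0.304% of its own.

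Eef1g (chr19:8967041-8978479) ran at 401, 497 and 650 CPM in controls and 595, 919 and 1170 CPM in phagocytosis libraries, and 14 of 16 were above every control. It had the smallest adjusted p of all members (log2 fold change 0.77 ± 0.126, adjusted p = 0.000127). The call held in each of the 35 alternatives (adjusted p at most 0.02). A pseudogene 99.627% identical to it, Gm4366, held 407 reads, 3.309% of those of Eef1g. Eef1d, the other guanine exchange subunit, ran at 138, 169 and 214 CPM and at 144, 221 and 270 CPM (0.39 ± 0.117, adjusted p = 0.024). Eef1d passed in 7 of the 11 alternatives other than leaving out 1 library. Leaving out a single library ended its call in 4 of 24 fits, those without female WT control 2, male NL4-/- control 1, female NL4-/- control 1 or male WT control 2 (adjusted p up to 0.0845). Eef1b2 (0.33 ± 0.117, adjusted p = 0.0601) and Eef1e1, an auxiliary protein of the tRNA synthetase complex (0.50 ± 0.176, adjusted p = 0.0553), did not pass. About as many of the reads of Eef1b2 fell on transcripts annotated for nonsense-mediated decay in controls (51.3% pooled, 36.2 to 63.3% by library) as in phagocytosis libraries (51.9%, 19.3 to 65.5%).

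Eef2 and its kinase differed in direction. Eef2 ran at 1050, 1470 and 1680 CPM in controls and 1300, 1670 and 2150 CPM in phagocytosis libraries, and did not pass (log2 fold change 0.28 ± 0.0985, adjusted p = 0.0603). It passed with DESeq2 (adjusted p = 0.00864). Eef2k (chr7:120842831-120907450) ran at 88.7, 103 and 133 CPM and at 38, 85.8 and 137 CPM. Of the 16 phagocytosis libraries 9 were below every control, and male WT phagocytosis 4, at 137 CPM, was above all of them. Eef2k fell by 0.48 ± 0.158 on the log2 scale (adjusted p = 0.0398), a call that 18 of the 24 fits without a single library did not give (adjusted p from 0.0191 to 0.149). The difference between Eef2 and Eef2k was not tested.

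Eif5a (chr11:69916714-69921958), the factor that carries the modified residue hypusine, ran at 403, 442 and 569 CPM in controls and 423, 653 and 803 CPM in phagocytosis libraries, with 12 of 16 above every control (0.51 ± 0.113, adjusted p = 0.00286). Of the lysine methyltransferases that modify elongation factors, 1 of 5 tested rose, beside 8.41% of all genes tested. Eef1akmt1 (chr14:57549597-57571612) ran at 11.2, 14.9 and 25.6 CPM in controls and 17.8, 29.9 and 57.5 CPM in phagocytosis libraries. Within each sex and genotype its phagocytosis libraries were all above both controls, at 408 reads over all libraries. The log2 fold change was 0.88 ± 0.224 (adjusted p = 0.00807), and 0.81 (adjusted p = 0.114) without the satellite-rich controls. Eef1akmt2, Eef1akmt4 and Eef2kmt had log2 fold changes of 0.34, 0.33 and -0.11. Eef1akmt3 had 0 reads in 5 libraries and no SE could be estimated for it.

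**Figure D3:**
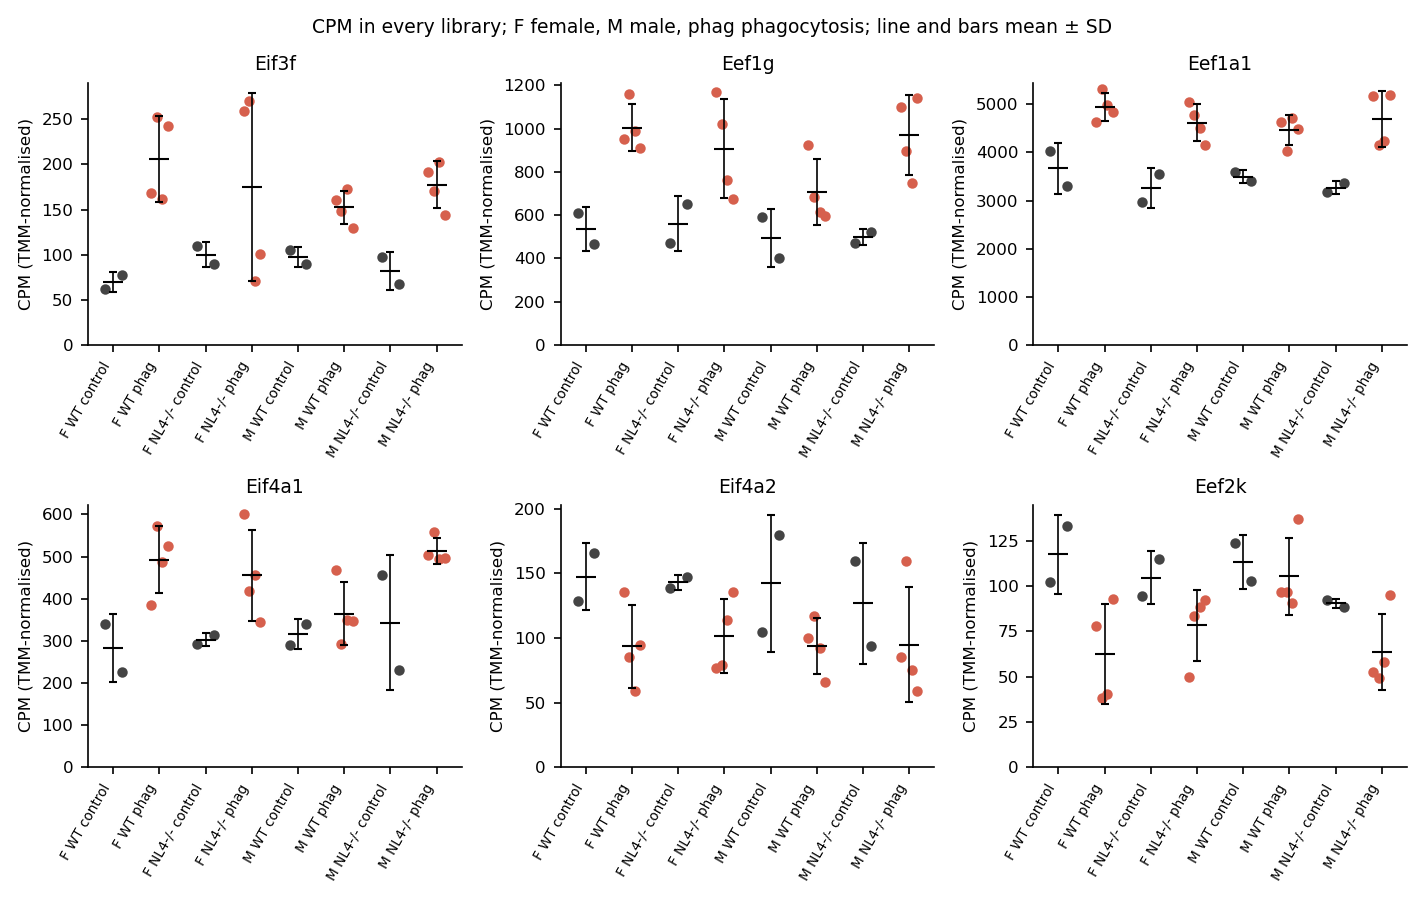
TMM-normalised CPM of 6 members in every library, by sex (F, M), genotype and state (phag, phagocytosis), with mean ± SD. Eif3f, Eef1g, Eef1a1 and Eif4a1 are mostly higher in phagocytosis libraries, with female NL4-/- phagocytosis 3 and 4 low for Eif3f, and Eif4a2 and Eef2k are mostly lower, with overlap in each gene.

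In the eIF4F group, which binds the cap and unwinds the leader, 1 of 11 members rose and 1 fell, with a median of 0.015. Of all genes tested 8.41% rose and 5.18% fell, so these counts do not set the group apart. The 2 members that moved are paralogs, the helicases of eIF4F. Eif4a1 (chr11:69666936-69672423) ran at 226, 302 and 456 CPM in controls and at 292, 478 and 601 CPM in phagocytosis libraries, with 10 of 16 above every control. It rose by 0.54 ± 0.129 on the log2 scale (adjusted p = 0.00503), and the call held in each of the 35 alternatives (adjusted p at most 0.0355). A processed pseudogene 99.918% identical to Eif4a1, Eif4a-ps4, held 905 reads, 13.957% of those of Eif4a1. Counting the copies' reads with their members, an alternative chosen after seeing the data, left 14 risen and 2 fallen members.

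Eif4a2 (chr16:23107444-23114136) ran at 93.5, 143 and 180 CPM in controls and at 59, 88.8 and 160 CPM in phagocytosis libraries, and 9 of 16 were below every control. It fell by 0.53 ± 0.174 on the log2 scale (adjusted p = 0.04). This call too was missing in 18 of the 24 fits without a single library (adjusted p from 0.00856 to 0.202), and with protein-coding transcripts only (-0.77, adjusted p = 0.19). Of the reads of Eif4a2, 47.0% in controls and 56.7% in phagocytosis libraries were on transcripts annotated for nonsense-mediated decay, pooled over libraries. Single libraries ran from 20.6 to 64.5% in controls and from 0 to 100% in phagocytosis libraries, so the states overlapped. The TPM ratio of Eif4a1 to Eif4a2 ran at 0.742, 1.36 and 3.17 in controls and at 1.29, 2.85 and 5.96 in phagocytosis libraries, with 7 of 16 above every control.

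The remaining eIF4F genes did not pass. The scaffold paralogs had log2 fold changes of 0.35 (Eif4g1, adjusted p = 0.0606), -0.10 (Eif4g2) and -0.11 (Eif4g3). The cap-binding paralogs had -0.01 (Eif4e), 0.31 (Eif4e2, which binds the cap in repressive complexes) and -0.31 (Eif4e3). Eif4e ran at 51.2, 85.4 and 119 CPM in controls and at 59, 78.7 and 140 CPM in phagocytosis libraries, almost the same range. Of the helicase cofactors Eif4b had 0.05 and Eif4h 0.02, and Eif4a3, the helicase of the exon junction complex, had 0.15. Of the inhibitors and the transporter of eIF4E, 0 of 3 tested passed with edgeR or DESeq2, and 0 had an unadjusted p under 0.05. Eif4ebp1, whose protein sequesters eIF4E until mTORC1 phosphorylates it, ran at 68, 89.9 and 107 CPM and at 60.6, 104 and 149 CPM (0.21 ± 0.148, adjusted p = 0.389). Eif4ebp2 and Eif4enif1 had -0.17 and -0.29.

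Of the carriers of the initiator tRNA, 1 of 4 rose, beside 8.41% of all genes tested. A single call in a group is not read as a result about that group. Eif2s1 (chr12:78861819-78887010), the alpha subunit whose phosphorylation slows initiation under stress, ran at 50.3, 57.1 and 88.4 CPM in controls and 59, 83.2 and 166 CPM in phagocytosis libraries. Only 6 of 16 were above every control, and the log2 fold change was 0.53 ± 0.143 (adjusted p = 0.0119). Eif2s2, the beta subunit, had 0.24, and the alternative carriers Eif2a and Eif2d had -0.01 and -0.35. Of the 5 subunits of eIF2B, which recharges eIF2 with GTP, 0 passed with edgeR or DESeq2 and 0 had an unadjusted p under 0.05. They ranged from -0.06 (Eif2b4) to 0.35 (Eif2b5). Eif2b4, the one with the highest CPM, ran at 51.2, 72.2 and 97.1 CPM and at 47.9, 74.9 and 95.6 CPM. Among the 7 factors of start codon choice and subunit joining, 1 rose, Eif6 (chr2:155819832-155826925), which keeps the large subunit from joining too early. It ran at 83.2, 121 and 149 CPM in controls and 114, 164 and 241 CPM in phagocytosis libraries, with 13 of 16 above every control (0.55 ± 0.136, adjusted p = 0.00684). The 6 others ranged from 0.05 (Eif1) to 0.35 (Eif5b).

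Genes that act on these factors were counted from lists chosen with earlier results of these data known. Of all 9803 genes tested in the state comparison, 8.41% rose and 5.18% fell. A single call in a list is therefore not read as a result about that list. Of the 7 eIF2 kinases and phosphatase subunits 0 passed with edgeR or DESeq2 and 0 had an unadjusted p under 0.05 (median 0.037, lowest adjusted p = 0.208 for Eif2ak2). Of the 13 tested genes of mTORC1 and its translation effectors 0 passed with either tool and 3 had an unadjusted p under 0.05 (median -0.017), with Rheb at 0.55 (adjusted p = 0.0652) and Mknk1 at -0.38 (adjusted p = 0.0577). Of 7 tested genes of ATF4 and its targets 3 rose. They were the asparagine synthetase gene Asns (1.62 ± 0.497, adjusted p = 0.0225), the cystine transporter gene Slc7a11 (1.30 ± 0.386, adjusted p = 0.024) and the serine synthesis gene Psat1 (0.51 ± 0.162, adjusted p = 0.033). Asns was low, at 4.03 ± 3.12 CPM in controls and 12.3 ± 8.98 CPM in phagocytosis libraries. Of 4 genes of poly(A)-binding proteins, Pabpc1 rose (0.61 ± 0.132, adjusted p = 0.0023) and Paip2, which inhibits it, fell by 0.44 ± 0.137 (adjusted p = 0.028). Of 6 termination and recycling genes Etf1, the release factor eRF1, rose (0.79 ± 0.18, adjusted p = 0.00347). Of 9 mitochondrial translation factors Gfm2 fell by 0.56 ± 0.108 (adjusted p = 0.000913), a call that DESeq2 gave too. Of 22 genes of cytosolic aminoacyl-tRNA synthetases and their scaffold Aimp2 rose (0.56 ± 0.189, adjusted p = 0.0454), while DESeq2 called 0 of the 22. Of the 9 genes for diphthamide and hypusine, the modifications of eEF2 and eIF5A, 0 passed with edgeR and 2 had an unadjusted p under 0.05. DESeq2 called 1 of them, the hypusine synthesis gene Dohh (0.45, adjusted p = 0.0552 with edgeR).

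The same comparison was made within each sex and genotype, with 4 against 2 libraries. No member passed in any of the 4, while all genes passed at 0.581% in female WT and 0.326% in male WT, and at 0.459% in female NL4-/- and 0.602% in male NL4-/-. Unadjusted p under 0.05 were reached by 11 and 4 members in female and male WT, and by 15 and 17 in female and male NL4-/-. These were 19.3% and 7.02% of the members in WT and 26.3% and 29.8% in NL4-/-, beside 12.11% and 8.2% of all genes in WT and 9.56% and 10.83% in NL4-/-, so the share in male WT was below that of all genes. With DESeq2 the counts were 2 and 0 in WT, and 1 and 3 in NL4-/-, females given first. The smallest adjusted p were 0.0613 for Eif3f in female WT (log2 fold change 1.56 ± 0.387) and 0.0855 for Eef1g in male NL4-/- (0.97 ± 0.257). In female NL4-/- it was Eif3i (0.78 ± 0.248, adjusted p = 0.209), and in male WT Eif6 (0.67 ± 0.275, adjusted p = 0.494). The members' medians were 0.197 and 0.238 in female and male WT, and 0.233 and 0.396 in female and male NL4-/-.

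Of the 57 members, 16 in female WT and 11 in male WT had all 4 phagocytosis libraries above both controls, against 11.5% and 9.09% of all genes. In NL4-/- there were 19 in females and 24 in males, against 12.1% and 11.5% of all genes. In all 4 groups at once it held for 4 members, Eef1a1, Eef1akmt1, Eef1g and Eif3g, and for 1.69% of all genes. Over all libraries, 0 members had the 16 phagocytosis libraries entirely above the 8 controls, as 0.796% of all genes did, and 0 had them entirely below, as 0.0714% did. All 14 risen members were positive and both fallen ones negative in each of the 4 groups. Eif3f ranged from 0.66 in male WT to 1.56 in female WT, and Eef1a1 only from 0.35 to 0.52.

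**Figure D4:**
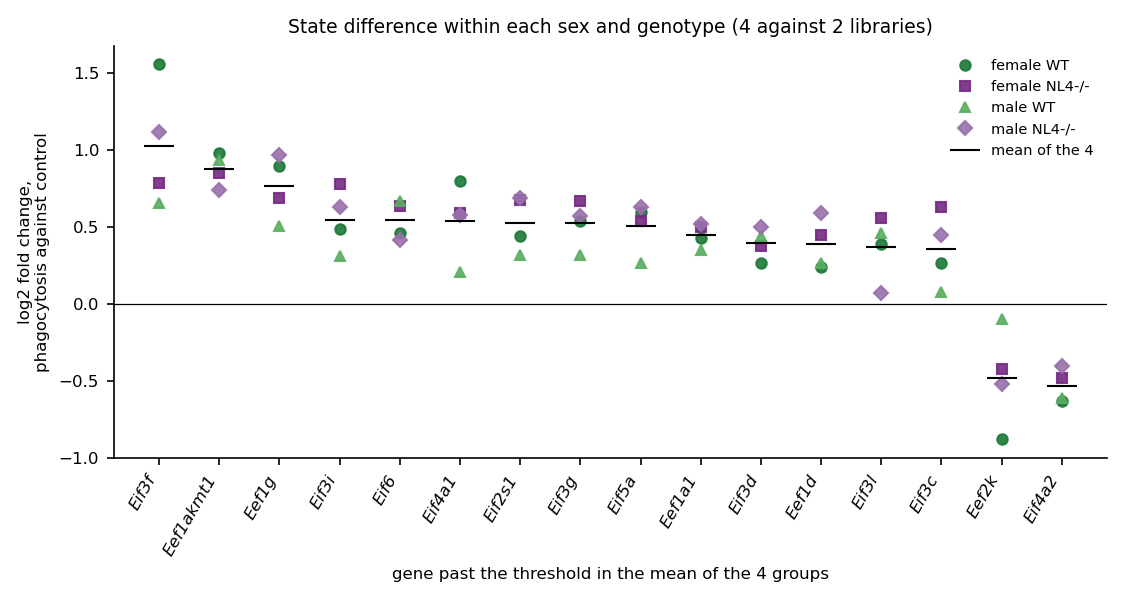
Log2 fold change of phagocytosis against control in each sex and genotype (symbols, 4 against 2 libraries) and their mean (bar) for the 16 called members. All 14 risen members lie above 0 in each group, with Eif3l in male NL4-/- at 0.07 and Eif3c in male WT at 0.08 closest to it.

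Whether the state difference depended on genotype or sex was tested by interactions. No member passed in either, and 0.0% of all genes did. For genotype, 3 members (5.26%, against 2.82% of all genes) had an unadjusted p under 0.05, among them Eef2, whose log2 state difference was larger in NL4-/- by 0.48 ± 0.195 (adjusted p = 1.0), and Eif4a3 (0.49 ± 0.207, adjusted p = 1.0). Eef2 had state differences of 0.07 and 0.01 in female and male WT and of 0.41 and 0.63 in female and male NL4-/-. For sex, 0 members had an unadjusted p under 0.05, as 1.94% of all genes had, and the smallest was that of Eif2b3 (0.61 ± 0.367, adjusted p = 1.0). DESeq2 called 0 members in both interactions.

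The genotypes were compared within each state averaged over the sexes. In phagocytosis libraries 0 of 57 members passed and 0.0% of all genes did, 2 members had an unadjusted p under 0.05 (3.51%, against 5.1% of all genes), and DESeq2 called 0. The members' median was -0.013. The smallest p was that of Eif4enif1, which carries eIF4E into the nucleus (log2 fold change 0.65 ± 0.216, adjusted p = 0.944). Its levels were 20, 17.9, 31.1 and 35.3 CPM in female WT and 33.6, 38.6, 42.9 and 33.2 CPM in female NL4-/- phagocytosis libraries. In males they were 28.1, 28.2, 22.4 and 33.6 CPM in WT and 50.7, 53.4, 44 and 47.4 CPM in NL4-/-. The male groups did not overlap and the female groups did, and the difference did not pass the correction over all genes. Eif3m was next (0.29 ± 0.123, adjusted p = 0.944). In controls 0 members passed, with 0.0% of all genes, 1 (1.75%, against 3.38% of all genes) had an unadjusted p under 0.05 and DESeq2 called 0, and the smallest p was that of Eef2 (-0.34 ± 0.159, adjusted p = 1.0).

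Within a sex, none of the genotype comparisons called a member, and 0.0% of all genes passed in each. In female phagocytosis libraries 2 members (3.51%, against 5.2% of all genes) had an unadjusted p under 0.05, led by Eef1akmt1 (-0.72 ± 0.323, adjusted p = 0.946). In male phagocytosis libraries 6 had (10.5%, against 4.74% of all genes), led by Eef2k (-0.74 ± 0.261, adjusted p = 1.0) and Eif4enif1 (0.79 ± 0.299, adjusted p = 1.0). In female and in male controls 0 had, against 2.14% and 3.35% of all genes. Eef2k ran at 96.8, 96.7, 90.9 and 137 CPM in male WT phagocytosis libraries and at 52.5, 49.3, 58.2 and 94.9 CPM in male NL4-/- ones, and at 78.2, 38, 40.4 and 93 CPM in female WT and 49.6, 83.4, 88.2 and 92.5 CPM in female NL4-/- ones. In males the ranges overlapped by 1 library. The test of whether the genotype difference depended on sex gave -1.05 ± 0.372 for Eef2k (adjusted p = 0.977), with 6 members (10.5%) at an unadjusted p under 0.05, as 4.76% of all genes were. After adjustment 0 members and 0.0% of all genes passed. DESeq2 called 0 members in these comparisons too.

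**Figure D5:**
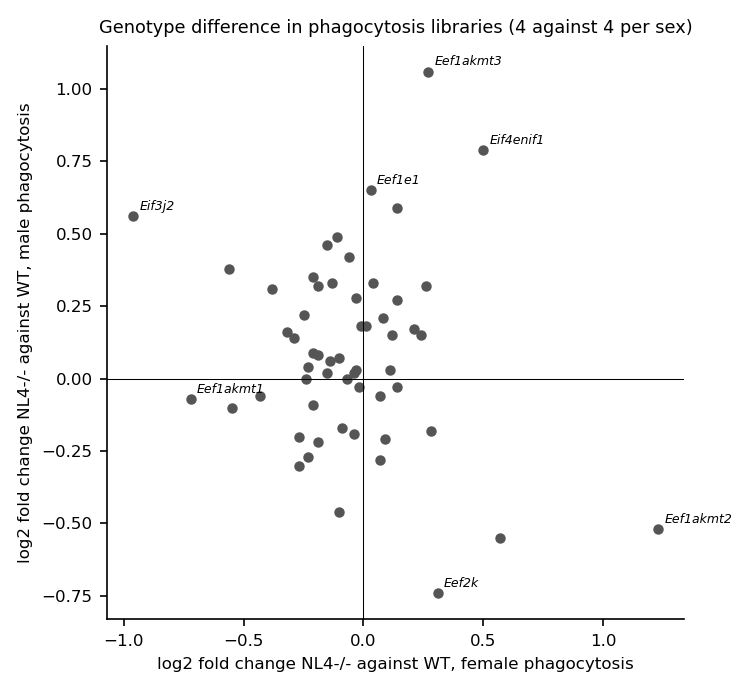
Log2 fold change of NL4-/- against WT in phagocytosis libraries of females (horizontal) and males (vertical), 4 against 4 libraries each, 1 point per tested member. Members over 0.6 in size in either sex are named. No point passed the test in either sex, and Eef2k lies at -0.74 in males.

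Male and female phagocytosis libraries were compared as the mean of the genotypes. Of the members 0 passed, against 0.0408% of all genes, and DESeq2 called 0. With an unadjusted p under 0.05 there were 3 (5.26%, against 4.76% of all genes), led by Eif3l (male lower by a log2 fold change of -0.32 ± 0.113, adjusted p = 0.934) and Eif3g (-0.35 ± 0.14, adjusted p = 1.0). The median over the members was -0.066.

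Some members share bases with other genes, and the libraries carry no strand. Exons of 15 members overlap those of another gene in the files. For Eef2kmt the shared part is 17.6% of its exonic bases, on the strand opposite to Alg1. Among members that moved, Eif4a2 shares 3.6% with Rfc4 on the opposite strand and Eef1d 4.3% with Naprt on the same strand. The other 14 called members had no such overlap. Near-identical copies that are not members, with reads above 1% of a member's own, were found for Eif4a1 and Eef1g and for Eif4e1b, which itself had 4 reads.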

How the data were processed

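The deposited files hold, per library and for 116945 transcripts, a transcript length, an expected count of reads and TPM, columns that salmon and similar quantifiers write, per the file headers. Which quantifier, index and read filters were used is not stated in the labels or headers. Deposited expected counts carry no normalisation, and the authors' TPM are length-corrected and share a common sum. Of the transcripts, 116023 matched GENCODE vM21 (GRCm38) and 922, with 0.274 to 0.379% of a library's reads, did not and were dropped. Sums of expected counts per gene were rounded to whole numbers.

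All 24 libraries entered 1 edgeR 4.0.16 quasi-likelihood fit (two-sided, robust) with 8 group means and TMM normalisation, after edgeR's filter with a minimum count of 10. The common dispersion was 0.0812. In each of 15 comparisons the Benjamini-Hochberg adjustment ran over 9803 genes, with a threshold of 0.05. SEs were worked back from the fold change and the F statistic. The script was tested on simulated data of the state comparison, with 100 genes changed at each of 2 sizes. It recovered 17% of those with a true log2 fold change of 0.5 in size and 67% of those at 1. Of its calls there, 6.7% were false. In the simulation a change of 0.5 thus mostly went uncalled. Far fewer genes were changed there than the 1332 called in the data, so its recovery need not hold for them. Most members near 0.5 in size were called, such as Eif5a at 0.51, while Eef1e1 at 0.50 was not. A gene that did not pass may still have changed. Alternatives were DESeq2 1.42.0, RLE scaling, no filter, a replicate block, length-scaled counts from TPM, protein-coding transcripts only, and libraries or satellite and olfactory genes left out. Copies were sought with blastn 2.17.0 (at least 95% identity over 200 bases).

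Members and gene lists were chosen with earlier results of these data known. Members named with values are up to 10 per direction in the state comparison by fold, and up to 3 called (or the highest in CPM) per role. The 5 highest in TPM and up to 2 with the smallest p in each other comparison are also named. Other members are named only within their paralog or role group. For the pathway lists the called genes are named, with some that did not pass. At these totals a gene at 10 CPM has few reads, and amplification without molecular identifiers means that errors from counting are a lower limit.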

Additional observations from a re-analysis of the deposited data

Results flagged for a closer look

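Among 72 groups of 4 libraries examined for the called and named members, 6 held a library far from the other 3 by Dixon's criterion, and chance gives about 1 in 20 such groups. Eef1akmt1 was at 57.5 CPM in female WT phagocytosis 3, against 32.1 to 35.8 CPM in the others of its group. Eif6 was at 222 CPM in female WT phagocytosis 2, against 160 to 165 CPM. Eef2k was at 137 CPM in male WT phagocytosis 4, against 90.9 to 96.8 CPM. Male NL4-/- phagocytosis 2 was the highest of its group for 3 genes. In it Eef1b2 was at 541 CPM, against 359 to 388 CPM, Eif2s1 at 95.9 CPM, against 81 to 82.8 CPM, and Eif4a1 at 558 CPM, against 494 to 504 CPM. The calls of Eef1akmt1, Eif6, Eif2s1 and Eif4a1 held without any 1 library. Among the 11 alternatives of other kinds, Eif6 passed in 8, Eef1akmt1 in 9, Eif2s1 in 10 and Eif4a1 in 11. The call of Eif6 was lost with length-scaled counts, without satellite-rich controls and with phagocytosis libraries 3 and 4 only.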

How the results depend on the processing

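Against 14 risen and 2 fallen members, DESeq2 gave 19 and 2, RLE scaling 18 and 2, no filter 11 and 2, a replicate block 17 and 1, length-scaled counts 14 and 0, protein-coding transcripts only 15 and 1, and phagocytosis libraries 1 and 2 only 17 and 1, or 3 and 4 only 9 and 1. Without the 3 satellite-rich controls 3 rose and 0 fell; without satellite and olfactory genes 14 rose and 2 fell. With 1 library left out, 10 to 21 rose and 0 to 2 fell. Eif3f, Eef1g and Eif4a1 passed in all 35 alternatives, and Eef1a1, Eif2s1, Eif3i, Eif5a and Eif3g in all but the fit without satellite-rich controls. The cause of these shifts was not tested. Within female WT, members called moved from 0 to 2 with DESeq2, 2 with no filter, 3 with the replicate block and 1 with either pair of phagocytosis libraries. Within female NL4-/- they moved to 1 with DESeq2 and 3 with phagocytosis libraries 1 and 2. Within male NL4-/- they moved to 3 with DESeq2, 2 with no filter, 1 with the replicate block, 1 with length-scaled counts and 2 with phagocytosis libraries 1 and 2. With 1 library left out each stayed at 0 to 1. The replicate block changed no other count of calls. Replicate numbers share only a number: same-numbered libraries had residual correlations of -0.0866 to 0.157, and 5 of 16 phagocytosis libraries correlated best with their own number. Genotype, sex and interaction comparisons stayed at 0 in each alternative run.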
